A study of Mus musculus with 6 samples.

Results

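Genes for the export, uptake, storage and sensing of iron were followed in innate lymphoid cell precursors (ILCPs), progenitors in bone marrow from which innate lymphoid cells arise. The 10 genes were Slc40a1, Hmox1, Fth1, Ftl1, Ncoa4, Tfrc, Slc11a2, Steap3, Aco1 and Ireb2, and all 10 were found by symbol among the 16383 genes analysed here. The set was drawn up around Slc40a1, which had been selected on its log2 fold change between the same 6 libraries. Differences between groups are therefore given as a description, and they support nothing.

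Every library came from Rag1-cre;ET-2 mice of the C57BL/6 strain, whose age is not given in the sources used here. ILCPs were sorted from lineage-depleted marrow as cells with IL7Rα, α4β7 and CD90 on their surface and without Flt3, CD25 and lineage markers. GFP+ ILCPs expressed ET-2, known as a fusion protein built to raise E protein activity, and GFP- ILCPs of the same marrow did not. Each group had 3 libraries, and each replicate came from 4 to 5 pooled mice that gave both fractions. GFP- cells carry Rag1-cre and the transgene too, and no group had Rag1-cre alone. GFP thus marks both ET-2 and past Cre activity in a cell, which cannot be told apart. The libraries held 10432461 to 19038554 estimated counts over the genes analysed here. Fewer genes were above 0 in the GFP+ library of each pair, with 14781, 12601 and 11278 against 15030, 14557 and 13816 genes, and the part of this in the results was not tested.

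Cells take up iron bound to transferrin through the transferrin receptor, encoded by Tfrc. Inside the endosome a STEAP reductase turns ferric into ferrous iron, and the transporter encoded by Slc11a2 carries it to the cytosol. Iron in excess is stored in ferritin, a shell of heavy and light chains encoded by Fth1 and Ftl1, or leaves the cell through ferroportin, encoded by Slc40a1. The iron regulatory proteins, encoded by Aco1 and Ireb2, bind RNA hairpins called iron-responsive elements when iron is low. A hairpin in the 5′ UTR lets them block translation, and hairpins in the 3′ UTR of Tfrc RNA protect it from decay.

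The hairpins are shown because they are the sequences through which iron is known to act on these RNAs. A search of annotated transcripts (GENCODE vM21, GRCm38) was made on the transcript strand. The motif was a C, 5 bases of a stem, CAGTG, then A, C or T, and 5 bases that pair with the stem, with G to T pairs allowed. It found 1 element in the 5′ UTR of Slc40a1, Fth1 and Ftl1 and 4 in the 3′ UTR of Tfrc. Of the longest coding transcripts of 13731 genes analysed, 1.09% held such a match, and 0.357% held one with at least 3 further pairs in the lower stem. Each sequence is printed 5′ to 3′ as DNA letters, with the first 5 bases of the loop in capitals.
Slc40a1: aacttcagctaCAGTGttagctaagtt
Fth1: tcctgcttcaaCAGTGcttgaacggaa
Ftl1: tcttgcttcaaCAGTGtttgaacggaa
Tfrc, element 1: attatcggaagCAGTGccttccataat
Tfrc, element 2: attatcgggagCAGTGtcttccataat
Tfrc, element 3: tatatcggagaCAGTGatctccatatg
Tfrc, element 4: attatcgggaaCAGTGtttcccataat
Slc11a2: gccatcagagcCAGTGtgtttctatggt

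The element of Slc40a1 lies at chr1:45925466-45925492 on the minus strand, that of Fth1 at chr19:9982733-9982759 on the plus strand and that of Ftl1 at chr7:45459780-45459806 on the minus strand. The elements of Tfrc lie on the plus strand at chr16:32631220-32631246, chr16:32631599-32631625, chr16:32631664-32631690 and chr16:32631711-32631737. The hairpin of Slc11a2 was matched only when 1 unpaired base was allowed on the 3′ side of the stem, a form that 0.488% of the searched genes held with at least 3 further pairs in the lower stem. It lies at chr15:100395153-100395180 on the minus strand, in the 3′ UTR of 1 annotated transcript. In Hmox1, Aco1, Ireb2, Ncoa4 and Steap3 these letters were not found, which says nothing about binding. Since the counts are per gene, transcripts with and without a hairpin were not separated.

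Slc40a1 and Ireb2 were higher in each GFP+ library than in any GFP- library, and Tfrc was lower in each. All GFP+ libraries lay above all GFP- libraries in these 2 members and in 3.17% of genes tested, and below them in 1 member and 6.01% of genes. The groups overlapped for the other 7 members. In all 3 pairs 2 members were higher, Slc40a1 and Ireb2, and 2 were lower, Tfrc and Slc11a2, as were 8.7% and 15.3% of genes. By log2 fold change, GFP+ over GFP-, 7 members were above 0 and 3 below, with a median of 0.38, while 49.0% of all genes tested were above 0, with a median of −0.03. Without GFP+ replicate 3 the members split 5 to 5 and their median was −0.02. As the members were chosen with this contrast known, nothing is read from these shares.

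Over all genes analysed, no gene of 12199 tested (0%) had a Benjamini-Hochberg adjusted p under 0.05 in edgeR's quasi-likelihood test, while 394 (3.23%) had an unadjusted p under 0.05 and DESeq2 called 60. All 10 members passed the filter on low counts, and edgeR called 0 of them. Slc40a1 and Hmox1 were the 2 members at an unadjusted p under 0.05. The DESeq2 calls were 0.411% of genes with an adjusted p and held 1 member, Slc40a1. The authors' deposited table calls the same 1 member and 0.703% of the genes analysed here that have an adjusted p in it. With the replicate block DESeq2 called 1.22% of genes and 0 members. Scaling by library totals moved the median of all genes by −0.16 on the log2 scale. Relative to that median the log2 fold changes were then 3.64 for Slc40a1, 3.12 for Hmox1, 0.69 for Ireb2 and −0.90 for Tfrc.

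**Figure D1:**
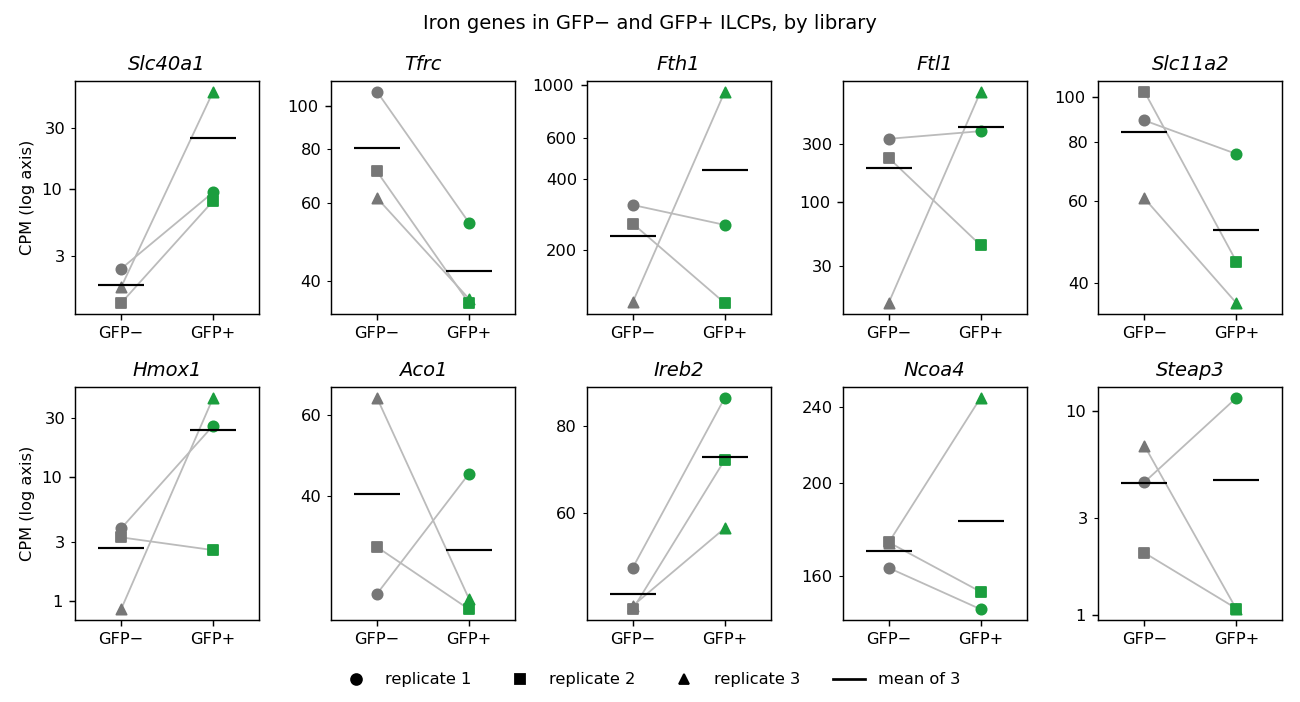
Level (CPM, counts scaled by library size with TMM factors, on a log axis) of the 10 iron genes in GFP- (grey) and GFP+ (green) ILCPs, with lines joining the libraries of 1 replicate and black bars for the mean of 3. All GFP+ values lie above all GFP- values for Slc40a1 and Ireb2 and below them for Tfrc, and the groups overlap for the other 7.

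Slc40a1, which encodes ferroportin, the only known exporter of iron from mammalian cells, was selected on its difference between these groups. Its level was 9.39, 8.05 and 57.2 CPM in GFP+ replicates 1, 2 and 3, from 148, 97 and 481 counts. In GFP- replicates, given here and below in the same order, it was 2.38, 1.29 and 1.71 CPM, from 34, 28 and 22 counts. The groups did not overlap, and GFP+ replicate 3 alone held 71.5% of the summed CPM. The GFP+ value was 3.94, 6.26 and 33.4 times that of the GFP- library of the same pool in pairs 1, 2 and 3.

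The log2 fold change of Slc40a1, GFP+ over GFP-, was 3.79 ± 1.21 (SE; edgeR). With 1 library left out it lay between 2.28, without GFP+ replicate 3, and 4.25. Without that library Hmox1 stood higher, at 2.42. The authors' deposited table lists Slc40a1 with a log2 fold change of 3.92 and an adjusted p of 0.0101. DESeq2 on the same counts gave 3.91 and an adjusted p of 0.0319. That call was lost with the replicate block (adjusted p of 0.0677), without GFP+ replicate 3 (0.211) and without GFP- replicates 1, 2 or 3 (0.1, 0.29 and 0.173). It was also lost without replicates 2 or 3 of both groups (0.0935 and 0.502). The call was kept without GFP+ replicate 1 (0.00417), GFP+ replicate 2 (0.00754) and replicate 1 of both groups (0.0404). Where it was lost the DESeq2 log2 fold change was 2.29 and 2.33 in the fits without GFP+ replicate 3 and 3.23 to 4.18 in the others. In bulk RNA, a higher level per cell and more cells of a type that express a gene cannot be told apart.

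Hmox1 encodes heme oxygenase 1, which breaks heme down and frees its iron. It had 26.1, 2.57 and 43.9 CPM across GFP+ replicates 1, 2 and 3. The GFP- replicates stood at 3.85, 3.26 and 0.856 CPM. GFP+ replicates 1 and 3 were above every GFP- library, while GFP+ replicate 2 lay among them, so the groups overlapped. Its log2 fold change was 3.18 ± 1.27 (SE; edgeR), and 2.42 without GFP+ replicate 3. DESeq2 did not call Hmox1 (adjusted p = 0.259) but did so without GFP+ replicate 2 (adjusted p = 0.0117), its lowest GFP+ library. In no other DESeq2 fit was it called. The adjusted p was 0.334 with the replicate block and 0.084 to 0.761 with another library or a replicate of both groups left out. As background, Hmox1 and Slc40a1 are both known to be induced by heme in macrophages.

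Macrophages are the cells best known for both genes, so macrophage markers were read in the same libraries. The 16 markers analysed here summed to 1018, 156 and 1363 CPM in GFP+ replicates 1, 2 and 3. In GFP- replicates they summed to 316, 230.1 and 203 CPM. Lyz2 alone gave 714, 24.8 and 819 CPM of these sums in GFP+ and 250.2, 144 and 99.96 CPM in GFP- replicates, and Cd163 gave 83.5 CPM of the sum in GFP+ replicate 2. GFP+ replicates 1 and 3 had the highest sums and the highest Hmox1. Slc40a1 was above the GFP- libraries in every GFP+ replicate, and the marker sum was the lowest of the 6 in GFP+ replicate 2. Csf1r, the receptor that macrophages need for survival, stood at 82.1, 0.166 and 82.6 CPM in GFP+ and at 11.9, 3.31 and 12.5 CPM in GFP- replicates. C1qc, a complement subunit of tissue macrophages, stood at 31.7, 0 and 51.5 CPM in GFP+ and at 0.631, 0 and 0.156 CPM in GFP- replicates. Adgre1 and Cd68 did not share this pattern. Adgre1, the macrophage surface protein F4/80, stood at 5.71, 0.996 and 0.476 CPM in GFP+ and at 0.491, 2.80 and 5.13 CPM in GFP- replicates. Cd68, a lysosomal protein, stood at 14.3, 6.89 and 3.69 CPM in GFP+ and at 10.2, 10.8 and 4.2 CPM in GFP- replicates. Lyz2 and Axl led the list, and both were highest in GFP+ replicates 1 and 3. Axl stood at 95.6, 1.49 and 188 CPM in GFP+ and at 11.6, 21.8 and 44.6 CPM in GFP- replicates. Of the 16 markers, 6 were at 0 in GFP+ replicate 2 (Mrc1, C1qa, C1qc, Mertk, Cd5l and Hpgd), 1 in GFP+ replicate 3 (Mertk) and 0 in GFP+ replicate 1, against 1, 6 and 4 in GFP- replicates 1, 2 and 3. The part of such cells in the levels of Slc40a1 and Hmox1 was not tested.

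**Figure D2:**
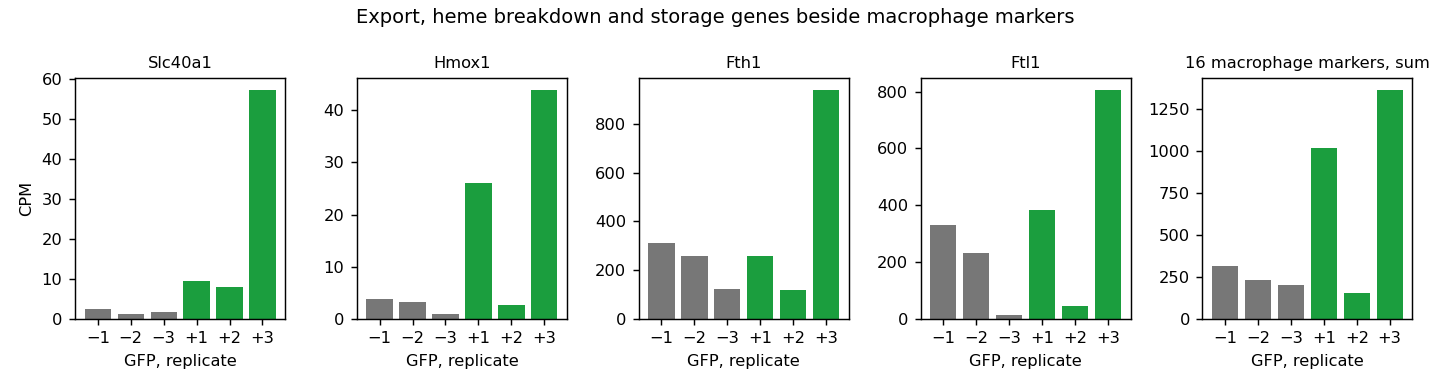
CPM (linear axis from 0) of Slc40a1, Hmox1, Fth1, Ftl1 and the sum of 16 macrophage markers in each library, GFP- in grey and GFP+ in green, 1 bar per library. GFP+ replicates 1 and 3 are highest for Hmox1 and the marker sum. Every GFP+ replicate stands above every GFP- replicate for Slc40a1.

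Other cell type markers were read as well. Ribosomal protein genes took 8.61% of the counts of GFP+ replicate 3 and immunoglobulin genes 2.98%, while no other library was above 3.32% and 0.136%. The 9 B cell and plasma cell markers, led by Ighm and Igkc, summed to 24285 CPM there and to 440.1 to 1511 CPM elsewhere. The 6 granulocyte markers, led by Mpo and Elane, summed to 754 CPM there against 8.71 to 183 CPM. Of the tested markers, 10 of 14 were higher in GFP+ for macrophages (median log2 fold change 1.78, and 1.03 without GFP+ replicate 3), 5 of 7 for B and plasma cells and 5 of 6 for granulocytes. Without GFP+ replicate 3, 2 of 7 and 1 of 6 were higher, and the medians went from 2.14 to −0.80 for B and plasma cells and from 1.00 to −0.61 for granulocytes. edgeR and DESeq2 called 0 in each list. DESeq2 gave Ighm and Igkc no p-value, however, so it could not have called either. The 10 ILCP markers, led by Itga4 and Rora, summed to 7741 to 17810 CPM, and 4 were higher in GFP+. Only Pdcd1 was at 0 in a library, GFP+ replicate 3, and Il7r stood at 1259 to 2679 CPM.

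The ferritin genes varied widely among the libraries of both groups. Fth1, the heavy chain with the ferroxidase site, had 256, 119.7 and 941 CPM across GFP+ replicates 1, 2 and 3. In GFP- replicates it stood at 312, 260 and 121 CPM. The groups overlapped, with GFP+ replicate 3 highest and GFP+ replicate 2 lowest of all. Ftl1, the light chain that helps to form the iron core, stood at 382, 44.4 and 806 CPM in GFP+ and at 331, 232 and 14.9 CPM in GFP- replicates. Its highest value was 53.98 times its lowest, the widest span of the 10 genes. edgeR gave log2 fold changes of 0.93 ± 0.74 for Fth1 and 1.09 ± 1.08 for Ftl1 (SE). Without GFP+ replicate 3 they were −0.30 and 0.14, and without replicate 3 of both groups −0.61 and −0.41.

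Heavy and light chain were not in a constant ratio. Per transcript length, Fth1 over Ftl1 was 0.315, 1.27 and 0.548 in GFP+ replicates 1, 2 and 3 and 0.442, 0.526 and 3.80 in GFP- replicates. The heavy chain exceeded the light chain in the 2 libraries with the least ferritin, GFP+ replicate 2 and GFP- replicate 3. Together the chains took 0.0789%, 0.0131% and 0.141% of the counts in GFP+ and 0.0785%, 0.0562% and 0.012% in GFP- replicates. Ferritin genes have near-identical processed copies, and how their reads were shared is not given in the sources used here. The copy Fth-ps2 had 285, 94 and 0 counts in GFP+ and 148, 95 and 476 in GFP- replicates, and is not part of these shares or ratios. Ftl1 also overlaps Gm10252 on the other strand and Gm22133, so its counts are uncertain in that respect too.

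Ncoa4, the cargo receptor that carries ferritin to lysosomes so that its iron is released, was the steadiest of the set. It stood at 148, 154 and 246 CPM in GFP+ and at 163, 174 and 173 CPM in GFP- replicates. Its highest value was 1.66 times its lowest. The 2 lower GFP+ libraries lay below the GFP- libraries and GFP+ replicate 3 lay above them. The log2 fold change of 0.10 ± 0.47 (SE; edgeR) changed sign without GFP+ replicate 3, to −0.17, and under scaling by library totals, to −0.12.

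Tfrc, the transferrin receptor, was lower in GFP+ ILCPs in each pair. It had 54.3, 35.6 and 36.4 CPM across GFP+ replicates 1, 2 and 3. The GFP- replicates stood at 107.8, 70.97 and 61.8 CPM. All GFP+ values lay below all GFP- values, and the GFP- library held 1.99, 1.99 and 1.70 times the level of its GFP+ partner. The log2 fold change was −0.93 ± 0.56 (SE; edgeR) and stayed between −1.10 and −0.63 with any 1 library left out. Scaled by library totals the groups overlapped, with 67.0 CPM in GFP+ replicate 1 against 54.4 CPM in GFP- replicate 3, while all 3 pairs kept their sign. Red cell precursors are rich in Tfrc, and the 14 erythroid markers, led by Ermap and Slc4a1, summed to 74.1, 27.5 and 144 CPM in GFP+ and 108, 78.8 and 123 CPM in GFP- replicates. Of 10 tested, 5 were higher and 5 lower in GFP+, with a median log2 fold change of −0.06. Without GFP+ replicate 3, 11 passed the filter, of which 2 were higher and 9 lower, with a median of −1.55. The 2 medians thus rest on different sets of genes. Their part in the level of Tfrc was not tested.

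Slc11a2, which encodes the ferrous iron transporter DMT1, was also lower in each pair. It stood at 75.5, 44.5 and 36.3 CPM in GFP+ and at 88.9, 102 and 60.7 CPM in GFP- replicates. Each GFP+ library lay below its GFP- partner, but GFP+ replicate 1 lay above GFP- replicate 3, so the groups overlapped. The log2 fold change was −0.69 ± 0.57 (SE; edgeR) and −1.01 to −0.49 with 1 library left out. Slc11a2 overlaps Gm5475 on the other strand, and the labels do not say whether strand was kept.

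Steap3, the ferric reductase of endosomes in red cell precursors, was low and uneven. It had 183, 13 and 9 counts in GFP+ replicates 1, 2 and 3 and 64, 44 and 87 in GFP- replicates. These are 11.6, 1.08 and 1.07 CPM against 4.49, 2.02 and 6.77 CPM. GFP+ replicate 1 was the highest library and the other GFP+ libraries the lowest. The log2 fold change of 0.06 ± 1.48 (SE; edgeR) became −1.97 without GFP+ replicate 1 and −0.74 with the replicate block.

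The genes of the iron regulatory proteins differed from each other in pattern. Ireb2, which encodes IRP2, the form destroyed when iron is plentiful, had 87.95, 71.5 and 57.0 CPM across GFP+ replicates 1, 2 and 3. In GFP- replicates it stood at 49.97, 43.5 and 44.0 CPM. The groups did not overlap, and each GFP+ library was 1.76, 1.64 and 1.29 times its partner in pairs 1, 2 and 3. Its log2 fold change was 0.65 ± 0.54 (SE; edgeR), and 0.54 to 0.80 with 1 library left out. Scaled by library totals the groups overlapped, with 45.9 CPM in GFP+ replicate 3 against 61.0 CPM in GFP- replicate 1.

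Aco1, which encodes IRP1, a protein that is an aconitase when it holds an iron-sulfur cluster, stood at 44.7, 22.6 and 23.8 CPM in GFP+ replicates. The GFP- replicates stood at 24.4, 30.9 and 65.5 CPM. It was higher in pair 1 and lower in pairs 2 and 3. The log2 fold change of −0.41 ± 0.70 (SE; edgeR) became 0.13 without GFP- replicate 3. Per length, the level of Ireb2 over that of Aco1 was 1.31, 2.10 and 1.59 in GFP+ and 1.36, 0.936 and 0.446 in GFP- replicates.

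**Figure D3:**
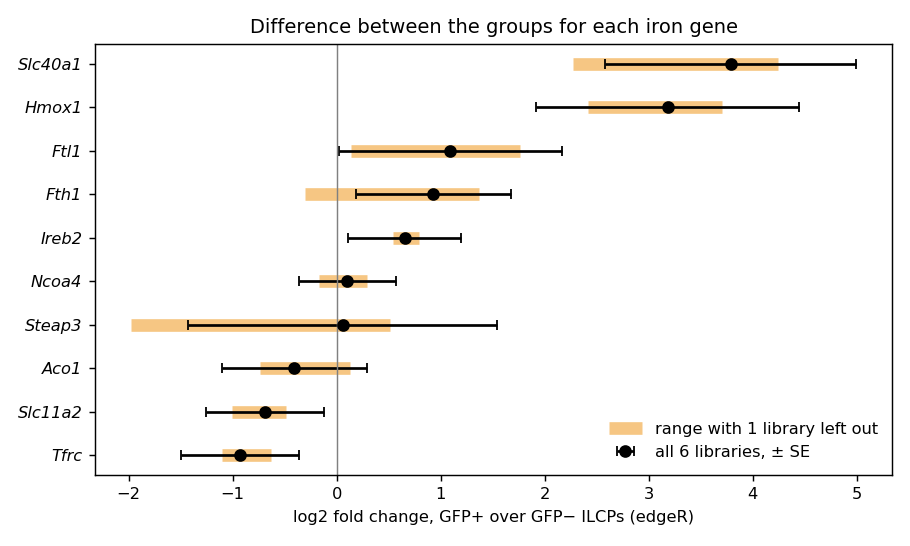
Log2 fold change of each gene, GFP+ over GFP- ILCPs (x axis, edgeR), with its standard error (black) and the range over 6 fits that each leave out 1 library (orange). Slc40a1 and Hmox1 stand highest at 3.79 and 3.18, Tfrc lowest at −0.93, and the ranges of Fth1, Ncoa4, Steap3 and Aco1 cross 0.

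Levels of different genes were set side by side in TPM, which are counts over the length of the longest transcript, scaled to the same sum in every library. The median over 6 libraries was 1079 TPM for Ftl1, 481 for Fth1, 111 for Ncoa4, 52.4 for Slc11a2 and 38.8 for Tfrc. It was 27.6 TPM for Ireb2, 26.6 for Aco1, 8.41 for Hmox1, 3.44 for Slc40a1 and 2.35 for Steap3. The storage genes were thus at the top and the exporter near the bottom. Fth1 exceeded Ncoa4 and Ncoa4 exceeded Slc11a2 in 6 of 6 libraries. Every other neighbour in this order changed places in at least 1 library, and the ranges of all neighbours overlapped. With merged exons as the length, Slc40a1 came last and Aco1 stood above Ireb2.

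**Figure D4:**
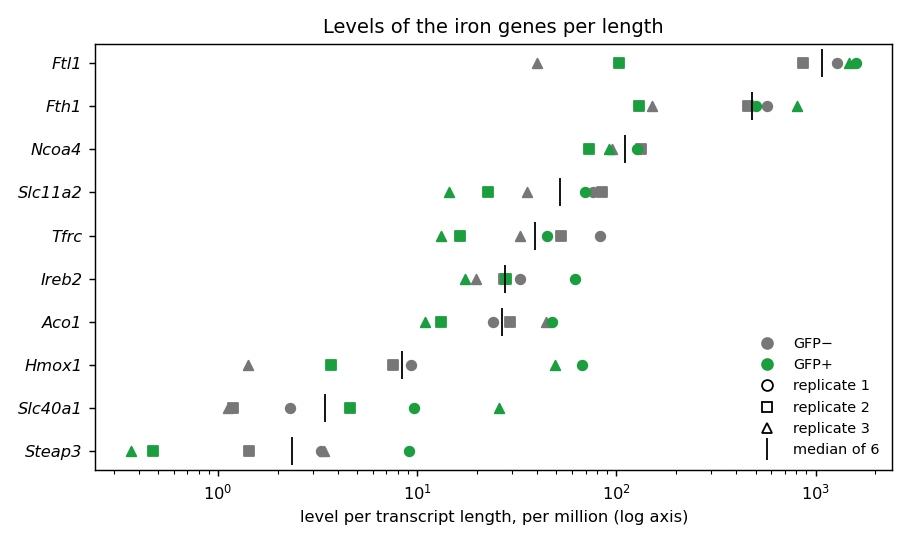
Level of each iron gene in TPM from the length of its longest transcript (log axis), with 1 point per library (GFP- grey, GFP+ green, shape by replicate) and a bar at the median of 6. Ferritin genes stand highest, with medians of 1079 and 481, and Slc40a1 and Steap3 lowest, with 3.44 and 2.35.

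Exporter and receptor were also set against each other. Per length, Slc40a1 over Tfrc was 0.215, 0.281 and 1.96 in GFP+ replicates 1, 2 and 3. In GFP- replicates it was 0.0275, 0.0226 and 0.0345. The groups could not overlap here, since every GFP+ library was above every GFP- library for Slc40a1 and below for Tfrc. The ratio therefore adds no further result. In GFP+ replicate 3 the exporter exceeded the receptor. Tfrc over the sum of the ferritin genes was 0.0214, 0.0701 and 0.00578 in GFP+ and 0.0447, 0.0397 and 0.171 in GFP- replicates, and overlapped.

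Across the 6 libraries, log2 CPM of Fth1 and Ftl1 had a Pearson r of 0.88, Tfrc and Slc11a2 0.86, Hmox1 and Ftl1 0.85, and Hmox1 and Slc40a1 0.82. Slc40a1 and Slc11a2 had −0.79 and Slc40a1 and Tfrc −0.74. These values describe 6 points that share libraries and pools, and differ in depth. Of 10704 genes compared, those most like Slc40a1 were Adgre5 (r = 0.987), an adhesion receptor of leukocytes, Pde3b (0.985), a phosphodiesterase, Eif3e (0.98), a translation initiation subunit, Gpatch4 (0.979) and AU022252 (0.978). Genes with a mean under 20 counts and those with Gm, Rik or LOC symbols were left out of this comparison. Adgre5 stood at 418, 406 and 837 CPM in GFP+ and at 196, 198 and 183 CPM in GFP- replicates. Those most like Tfrc were Cdc25a (0.981), a phosphatase that drives the cell cycle, Nudt22 (0.974), Ccdc120 (0.972), C1qtnf6 (0.972) and Colq (0.97). In GFP+ replicates 2 and 3, Nudt22, Ccdc120 and C1qtnf6 had 0 counts, and Colq had 2 and 0. The r of these genes thus rests partly on values at the floor. None of the genes named as most like Slc40a1 or Tfrc overlapped between the groups, so r largely restates that difference. Cdc25a stood at 11.7, 4.65 and 7.14 CPM in GFP+ and at 33.8, 19.5 and 15.8 CPM in GFP- replicates.

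Of 29 further genes of iron transport and handling, 21 were analysed here and 20 tested, with 13 higher, 7 lower and 0 called by edgeR or DESeq2. Their median log2 fold change was 0.25, and 0.20 without GFP+ replicate 3. The highest mean counts were those of Pcbp2 and Pcbp1, chaperones that hand iron to ferritin, with log2 fold changes of 0.45 ± 0.53 and 0.72 ± 0.68 (SE). Lrp1, which takes up heme bound to hemopexin, stood at 123, 2.74 and 300.01 CPM in GFP+ and at 39.7, 9.42 and 7.55 CPM in GFP- replicates. It was high in the libraries with high macrophage markers. Mcoln1, a lysosomal channel that passes iron, stood at 20.6, 23.5 and 235 CPM in GFP+ and at 22.6, 48.8 and 11.05 CPM in GFP- replicates, high in GFP+ replicate 3 only.

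Heme synthesis had 10 of 12 genes analysed here, 6 higher and 4 lower in GFP+ ILCPs, with 0 called. Their median was 0.14, and −1.01 without GFP+ replicate 3. Cpox, which makes protoporphyrinogen, stood at 14.0, 23.7 and 18.4 CPM in GFP+ and at 42.96, 71.4 and 117 CPM in GFP- replicates. Its groups did not overlap, and the log2 fold change was −2.05 ± 0.66 (SE; edgeR). Alas1, the first and limiting enzyme outside red cells and named here for its lack of overlap, stood at 15.0, 1.83 and 15.2 CPM against 26.7, 48.5 and 19.6 CPM. Scaled by library totals, GFP+ replicate 1 lay above GFP- replicate 3 for Alas1, so its groups overlapped. Slc25a39, which carries glutathione into mitochondria, was higher in each pair, at 15.9, 45.2 and 57.6 CPM against 14.7, 17.0 and 4.67 CPM. The gene with the highest mean count, Ppox, had a log2 fold change of 0.25 ± 0.88 (SE).

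Iron-sulfur cluster assembly had all 26 genes analysed and tested, 13 higher and 13 lower, with 0 called and a median of −0.08. Without GFP+ replicate 3 there were 8 higher and 18 lower, and the median was −0.40. Mms19, which delivers clusters to DNA enzymes, and Hspa9, the mitochondrial chaperone of the pathway, had the highest mean counts. Their log2 fold changes were 0.34 ± 0.77 and 0.06 ± 0.58 (SE). Lyrm4, a partner of the cysteine desulfurase, stood at 11.3, 4.23 and 10.6 CPM against 4.70, 1.84 and 0 CPM, with overlap. Bola3, a late factor of assembly, stood at 10.3, 5.23 and 2.38 CPM against 15.3, 49.0 and 2.96 CPM.

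The hepcidin pathway, by which the liver controls ferroportin, had 11 of 16 genes analysed here and 10 tested, 5 higher and 5 lower, with 0 called and a median of 0.19. Bmpr2 and Smad5, a receptor and a signal transducer of bone morphogenetic proteins, had log2 fold changes of 0.43 ± 0.53 and 0.71 ± 0.72 (SE). Smad7, an inhibitor of that signal, stood at 40.9, 3.07 and 9.52 CPM against 20.6, 73.9 and 68.3 CPM. Acvr1, a receptor, stood at 14.0, 0.083 and 25.1 CPM against 7.78, 1.24 and 4.67 CPM. The groups overlapped for both.

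NRF2 and BACH1 are known to control Hmox1, Slc40a1 and the ferritin genes, NRF2 as activator and BACH1 as repressor. Of 15 of their other targets and regulators analysed here, 14 were tested, 8 higher and 6 lower, with 0 called and a median of 0.11. Gclc, a glutathione synthesis subunit, and Nfe2l2, which encodes NRF2, had the highest mean counts, with log2 fold changes of 0.13 ± 0.54 and 0.37 ± 0.51 (SE). Gpx4, which clears lipid peroxides that iron promotes, stood at 12.8, 17.7 and 57.8 CPM in GFP+ and at 11.3, 12.4 and 5.60 CPM in GFP- replicates, without overlap. Scaled by library totals, GFP+ replicate 2 lay just below GFP- replicate 2 for Gpx4, so its groups overlapped. Srxn1, which restores peroxiredoxins, stood at 3.55, 0.083 and 0.119 CPM against 7.57, 5.75 and 0.544 CPM.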

How the data were processed

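RNA of sorted ILCPs was made into cDNA, amplified isothermally, cleared of ribosomal sequences and read as pairs of 75 bases, per the labels' protocols. The authors' deposited table gives estimated counts per gene, not scaled between libraries. Per the file headers it also holds the authors' mean signal per gene, log2 fold changes, a Wald score and p-values. Trimmomatic, Bowtie2, kallisto, DESeq2 and GRCm38 stand in the submitters' processing notes, with neither version nor role. Symbols that sort after Trappc10, mitochondrial genes apart, were not analysed here, so library sizes are sums over the other genes.

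Counts were rounded and fitted over all genes in edgeR 4.0.16 (robust quasi-likelihood test on group alone, TMM scaling, filterByExpr) in R 4.3.3, with Benjamini-Hochberg adjustment at 0.05. DESeq2 1.42.0 was an alternative, and both were tested on simulated data. Recovery of known changes was required there only at a spread well below that of these data. The common biological coefficient of variation here, edgeR's measure of spread within a group, was 0.92. At such a spread, 0 calls by edgeR do not show that the groups are alike. Standard errors for edgeR are the fitted coefficient over the root of F. The members and lists were chosen with earlier results of these data known. Named genes were the 10 members, and in each further list the 2 of highest mean count, the 2 of largest fold change above a mean of 20 counts, any called, and in marker lists the 2 of highest mean. The 5 genes most like Slc40a1 and Tfrc, by Pearson r of log2 CPM (prior count 2), were also named. The other marker genes given by name, such as Csf1r, C1qc, Adgre1, Cd68, Il7r and Pdcd1, were chosen after their values were seen. Lengths came from GENCODE vM21 and covered 98.7% of genes. By the labels, both libraries of 1 number share a pool of mice. How each pair deviated from its group means correlated at 0.161, −0.121 and −0.131, so pairing rests on the labels. Each replicate is a pool of mice, so p-values measure the spread between pools. The labels name no molecular identifiers. Cd163 stands in the iron handling and macrophage lists, and Alas2 in the heme and erythroid lists. Figures were drawn with matplotlib 3.10.9.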

Additional observations from a re-analysis of the deposited data

How the results depend on the processing

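edgeR called 0 genes and 0 iron genes in every alternative run with it: the replicate block, both other scalings, both filters, and each replicate or library left out (0 to 0). DESeq2 called 60 genes and 1 iron gene, and with the replicate block, in the pairing by mouse pool, 153 genes and 0 iron genes, where edgeR with the block called 0. The DESeq2 log2 fold change of Slc40a1 was 2.29 to 4.60 with a replicate or library left out and 3.23 with the block. Over 16 alternatives, the log2 fold changes of Slc40a1, Hmox1, Ireb2, Tfrc and Slc11a2 kept their sign, at 2.25 to 4.50, 2.00 to 3.88, 0.50 to 0.80, −1.10 to −0.63 and −1.01 to −0.43. Those of Fth1, Ftl1, Aco1, Ncoa4 and Steap3 changed sign in 2, 1, 2, 3 and 5 of them; the cause was not tested. The medians of lists without GFP+ replicate 3 were added after seeing the data. Adding the copy Ftl1-ps2, with at most 2 counts, left the ferritin shares nearly as they were. Fth-ps2, with up to 476 counts, was not added, so its weight in the shares and in Fth1 over Ftl1 was not tested. Low counts limit Slc40a1 in GFP- ILCPs, which rests on 22 to 34 counts.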

Other observations

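The search for iron-responsive elements also met 49 genes whose longest coding transcript held an element with at least 3 further pairs in the lower stem, 4 of them iron genes described above. Among the others were Alas2, the red cell enzyme of heme synthesis, and Keap1, the sensor that restrains NRF2, both named after the search. Alas2 stood at 24.4, 0 and 0 CPM in GFP+ and at 10.7, 11.7 and 1.56 CPM in GFP- replicates. Keap1 stood at 31.5, 17.5 and 8.81 CPM in GFP+ and at 19.3, 20.1 and 61.8 CPM in GFP- replicates. The groups overlapped for both, and a match of letters is no evidence of binding.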
